A study of Rattus norvegicus with 50 samples.

Results

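Cytotoxic lymphocytes, the CD8+ T cells and natural killer (NK) cells that kill infected or damaged cells, were followed in rat liver through 7 genes, Gzma, Gzmb, Prf1, Nkg7, Klrd1, Cd3e and Cd8a. The genes were taken by symbol from the probe annotation of the array, using probe sets that carry 1 symbol, and where a gene had several, the brightest on average over all 50 livers was kept. All 7 were measured, out of 14217 genes in all, and no measured change was used to choose the probe sets. The symbols are those of the array's annotation.

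RNA from the whole livers of 50 female Brown Norway rats (Bn/Crl, MHC haplotype RT1n, 9 to 11 weeks old) was measured on Affymetrix rat expression arrays, with 1 array per rat. The series addressed an 8 d period during which fibrosis arises when nevirapine and galactosamine are combined, and not after either drug alone. Galactosamine is an amino sugar that injures hepatocytes by using up uridine nucleotides. Nevirapine, an inhibitor of HIV reverse transcriptase, can cause liver injury in patients. Rats fell into 17 groups of 3, or of 2 for galactosamine at 48 h. Vehicle groups received sham doses by mouth and by injection into the abdomen and were taken at 3 h, 24 h, 48 h, 8 d and 15 d. Galactosamine groups received a single injection of 750 mg/kg and sham oral doses, and were taken 3 h, 24 h, 48 h and 8 d later. Nevirapine groups received oral nevirapine and a sham injection, and were taken 3 h, 24 h, 48 h and 15 d after the first dose. Nevirapine began at 150 mg/kg, and for the 15 d group the labels' protocol gives 150, then 100, then 75 mg/kg, whereas the series' design text names 75 mg/kg alone. Combination groups received nevirapine for 7 d (150, then 100, then 75 mg/kg), then 750 mg/kg of galactosamine with nevirapine continued, and were taken 3 h, 24 h, 48 h and 8 d after the injection. Nevirapine alone for 7 d is not among the groups used here, so at 3 h to 48 h the part of the preceding nevirapine in the combination cannot be told apart from that of the drugs acting together. The combination at 8 d, with nevirapine given for 15 d, is compared with vehicle at 15 d, and every other treated group with vehicle of its own time. The last oral dose preceded removal of the liver by 2 h, except at 3 h, where the interval was 5 h, or 3 h for nevirapine alone.

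Killer lymphocytes store perforin (Prf1), which opens pores in a target cell's membrane, together with granzymes, serine proteases that enter the target and start its death. Granzyme A (Gzma) and granzyme B (Gzmb) are the best known of these, and Nkg7 is a granule membrane protein needed for degranulation. Klrd1 encodes CD94, which pairs with NKG2 proteins to form receptors for nonclassical MHC class I on NK cells and some CD8+ T cells. Cd3e is an invariant chain of the T cell receptor complex, and Cd8a a chain of the coreceptor of cytotoxic T cells. In the rat Cd8a is not confined to T cells and is also found on other cells, NK cells among them. The liver is rich in resident NK and T cells that lie in its sinusoids among Kupffer cells. Because whole liver was measured, fewer cells of a type and less RNA per cell cannot be told apart anywhere below.

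Promoter sequences are shown for the 3 effector genes at the core of the killing machinery, Gzma, Gzmb and Prf1. All 7 genes were called higher 3 h after galactosamine in rats given both drugs, so that call does not set these 3 apart. They come from RefSeq (GRCr8), which gave 300 bases, 250 before and 50 from the transcript start, for 6 of the 7 genes, without Klrd1. Gzma lies at chr2:46485647-46485946 (- strand), Gzmb at chr15:34462420-34462719 (- strand) and Prf1 at chr20:29788790-29789089 (+ strand). Each is written 5′ to 3′ along the gene, and capitals mark matches on either strand to TGTGGT, the core letters bound by RUNX transcription factors.
Gzma: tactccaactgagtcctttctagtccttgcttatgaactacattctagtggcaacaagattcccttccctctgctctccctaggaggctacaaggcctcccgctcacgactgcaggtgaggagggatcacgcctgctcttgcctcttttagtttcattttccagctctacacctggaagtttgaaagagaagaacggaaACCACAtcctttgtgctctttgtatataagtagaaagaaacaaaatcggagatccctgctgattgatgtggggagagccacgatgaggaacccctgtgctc
Gzmb: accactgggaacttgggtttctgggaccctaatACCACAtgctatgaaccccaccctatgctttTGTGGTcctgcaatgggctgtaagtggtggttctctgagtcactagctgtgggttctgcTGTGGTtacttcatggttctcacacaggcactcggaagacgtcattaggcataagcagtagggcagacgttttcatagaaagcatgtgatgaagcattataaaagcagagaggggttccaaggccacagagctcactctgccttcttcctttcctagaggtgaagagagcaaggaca
Prf1: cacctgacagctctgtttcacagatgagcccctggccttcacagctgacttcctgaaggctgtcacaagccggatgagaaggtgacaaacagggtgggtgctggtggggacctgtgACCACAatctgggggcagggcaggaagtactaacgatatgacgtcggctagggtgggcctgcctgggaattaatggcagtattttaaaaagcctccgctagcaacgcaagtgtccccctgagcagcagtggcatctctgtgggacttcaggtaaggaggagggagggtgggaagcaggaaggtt
Gzma held 1 match, its first base 51 bases before the start, Gzmb held 3, at 217, 186 and 127 bases before it, and Prf1 held 1, at 134 bases before it. Nkg7 also held 1 match, and Cd3e and Cd8a held none in this window. In all, 4 of 6 promoters held the letters, which 17.3% of 33469 promoters of the same length also hold. The T-box letters AGGTGT were in 2 of the 6 (Gzma and Cd3e) against 13.65% of all, the ETS letters AGGAAG in 4 of the 6 against 34.51%, and the STAT letters TTCNNNGAA in 2 of the 6 (Gzmb and Nkg7) against 8.874%. All were searched on both strands, and none of the capital letters shown overlapped another of these motifs. A match is a run of letters and not a shown binding site.

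Signals are given on the log2 scale of the deposited values, and each probe set is compared only with itself. Only the summed signals of lists add linear signals over several probe sets. As a level that need not exceed background, the highest mean of 27 probe sets for Bacillus subtilis control genes, log2 4.37, was used. All 7 genes lay among the dimmest 40% of the 14217, with mean signals at the 16.9th (Cd8a) to 37.8th (Prf1) percentile. Group means exceeded the control level in 16 of 17 groups for Prf1, 12 for Gzma, 9 for Cd3e, 6 for Klrd1, 5 for Nkg7, 2 for Cd8a and 1 for Gzmb. Where only 1 group of a comparison exceeded the level, the change is given as at least its signal over that level. Where neither did, no fold is given. Differences are log2 changes ± standard error from limma fitted to all 50 arrays, called at an adjusted p (Benjamini-Hochberg over 14217 genes) under 0.05, with n = 3 rats per group, or 2 for galactosamine at 48 h. The number of arrays limits the precision. Rats carry the numbers of their labels. Array medians lay between 4.954 and 5.0927, and rat63 (combination, 3 h) correlated least with the other arrays of its group, at 0.979. Among marker genes, 12 of 16 for T cells and 8 of 14 for NK cells exceeded the control level in at least 1 group. The T cell markers include Cd3e and Cd8a, and the NK cell markers Klrd1, Nkg7, Gzma and Prf1, each counted as exceeding it. The NK cell receptor gene Ncr1 (group means 2.47 to 2.78) and the lineage factor Eomes (2.81 to 3.31) stayed under it in all 17 groups, as did the T cell receptor chain Cd3g (3.42 to 4.24).

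**Figure D1:**
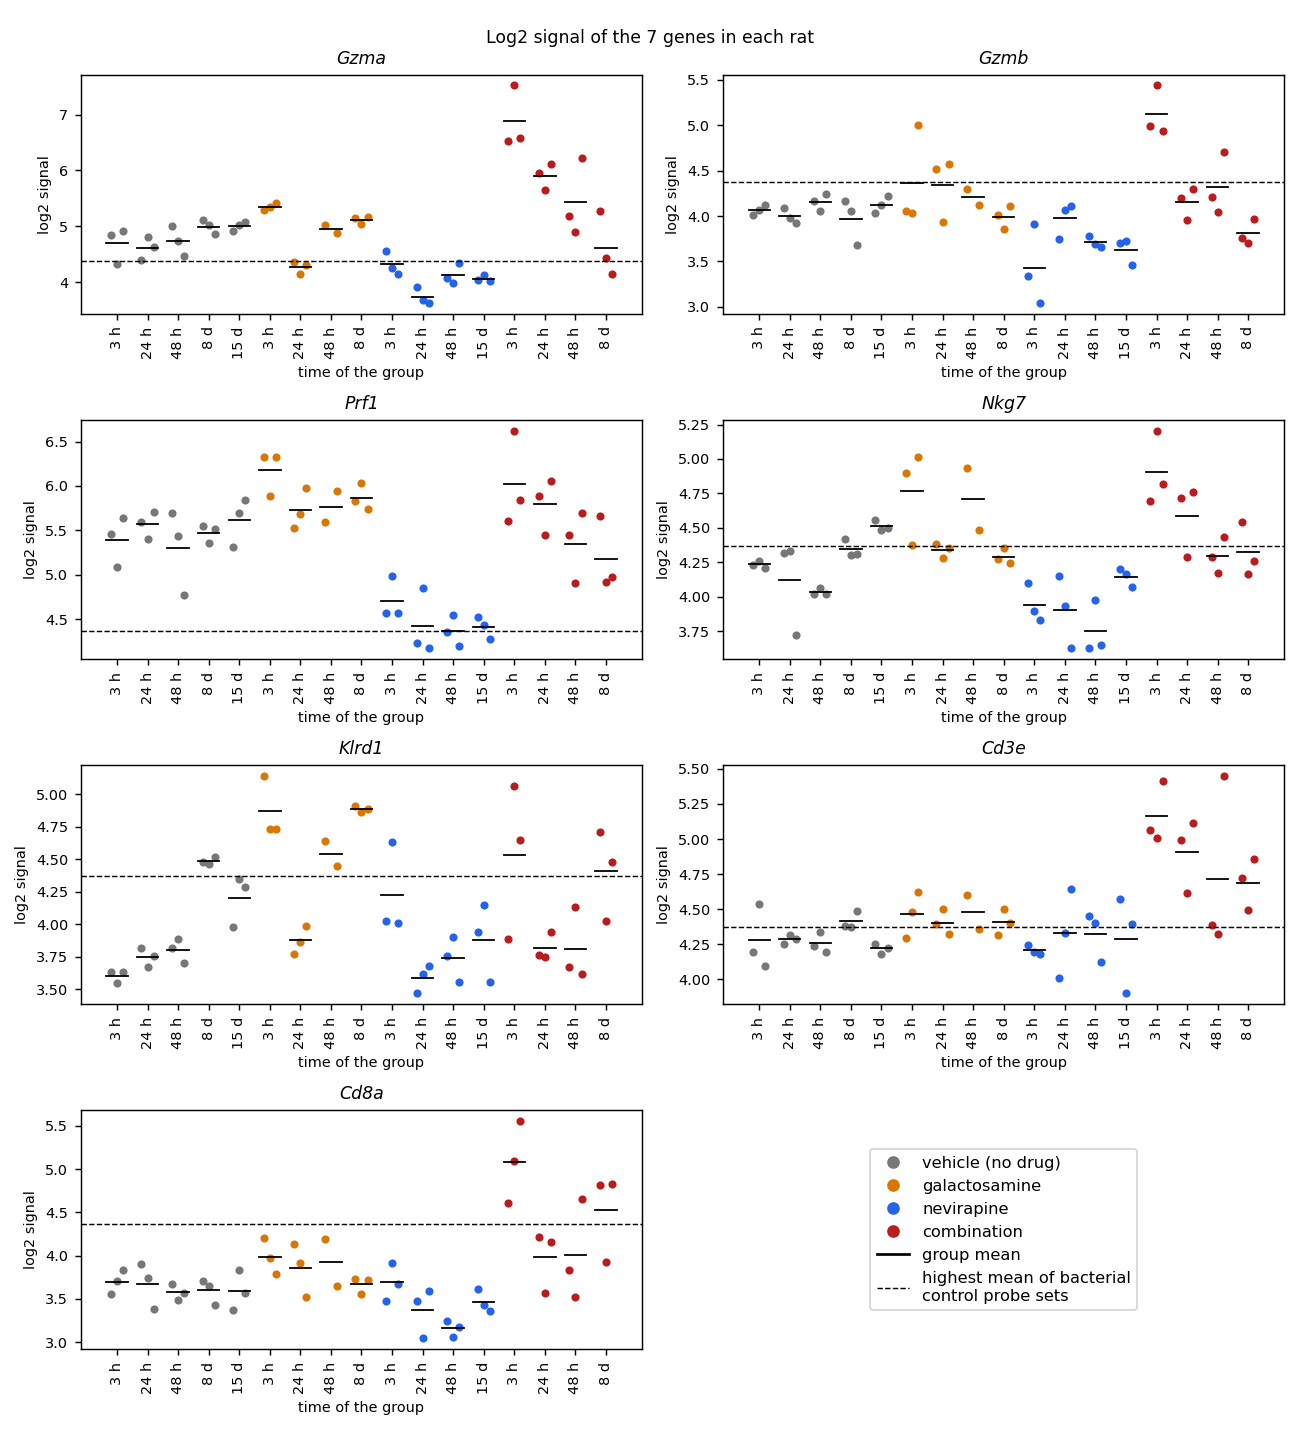
Log2 signal of each of the 7 genes (1 panel per gene) in every rat, by group along the horizontal axis and coloured by treatment. Short lines are group means (n = 3, or 2 for galactosamine at 48 h) and the dashed line is the control level of 4.37. Gzma stands between 6.53 and 7.52 in the combination at 3 h, while Prf1 lies lowest in the 4 nevirapine groups.

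Gzma, a granzyme that cleaves its substrates after basic residues, gave the widest range of the 7, with group means from 3.74 to 6.88. In vehicle livers it was 4.85, 4.33 and 4.91 at 3 h, 4.40, 4.81 and 4.63 at 24 h, and between 4.47 and 5.10 in the 9 rats of the later times. It was 6.53, 7.52 and 6.58 at 3 h of the combination, 5.96, 5.64 and 6.12 at 24 h, 5.18, 4.89 and 6.23 at 48 h, and 5.27, 4.44 and 4.14 at 8 d. Every combination rat at 3 h and 24 h, and 2 of 3 at 48 h, thus lay above all 15 vehicle rats. Against its vehicle group, Gzma rose 4.54-fold at 3 h (log2 2.18 ± 0.24, adjusted p = 9.21e-09), 2.45-fold at 24 h (1.29 ± 0.24, adjusted p = 3.37e-05) and 1.62-fold at 48 h (0.70 ± 0.24, adjusted p = 0.0415). The 48 h groups overlapped, and that call was lost without rat72 (adjusted p = 0.434), rat12 (0.194), rat11 (0.0929) or rat70 (0.0507), with only the 2 groups fitted (0.26), with array weights (0.182) and with the GAPDH covariate (0.083). At 8 d the difference was -0.39 ± 0.24 (adjusted p = 0.243).

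With galactosamine alone, Gzma was 5.28, 5.35 and 5.41 at 3 h, above all vehicle rats, and 4.35, 4.14 and 4.31 at 24 h. The 3 h value was 1.57-fold above vehicle (0.65 ± 0.24, adjusted p = 0.0322), a call that leaving out rat2 (adjusted p = 0.201), rat18 (0.0835), rat17 (0.0688) or rat16 (0.0553) ended. At 24 h, 48 h and 8 d of galactosamine the differences were -0.35, 0.22 and 0.12, none called. In nevirapine rats Gzma was 3.92, 3.67 and 3.63 at 24 h and 4.04, 4.13 and 4.02 at 15 d, below every vehicle rat. It fell at least 1.18-fold at 24 h (log2 -0.88 ± 0.24, adjusted p = 0.0125) and at least 1.55-fold at 15 d (-0.94 ± 0.24, adjusted p = 0.00614). The 24 h call was lost without rat5 (0.0694) or rat39 (0.0511). At 3 h and 48 h of nevirapine the differences were -0.38 and -0.61 (adjusted p = 0.302 and 0.0728). In the order of group means, the combination at 3 h did not overlap the next group, the combination at 24 h, nor did nevirapine at 24 h, the lowest, overlap the group above it. Among the 16 neighbouring pairs in this order, 3 did not overlap.

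Prf1, the pore-forming protein of the granules, was lowest with nevirapine. It was 4.57, 4.98 and 4.57 at 3 h of nevirapine, 4.24, 4.85 and 4.18 at 24 h, 4.36, 4.54 and 4.20 at 48 h, and 4.52, 4.44 and 4.28 at 15 d. In the 15 vehicle rats it ran from 4.77 to 5.85 (mean 5.47 ± 0.27 SD), so 10 of 12 nevirapine rats lay below all of them. The fall was 2.22-fold at 24 h (log2 -1.15 ± 0.24, adjusted p = 0.000968), at least 1.91-fold at 48 h (-0.93 ± 0.24, adjusted p = 0.00557) and 2.3-fold at 15 d (-1.20 ± 0.24, adjusted p = 0.000467). These 3 calls held in every setting tried and without each rat. At 3 h the fall was 1.61-fold (-0.69 ± 0.24, adjusted p = 0.0442), and that call was lost without rat3 (0.167), rat33 (0.129), rat31 (0.123) or rat1 (0.116), and after cyclic loess (0.0869), with array weights (0.0572), with the GAPDH covariate (0.0538) and without rat63, rat70 and rat31 together (0.116).

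With galactosamine, Prf1 was 6.33, 5.88 and 6.32 at 3 h, above every vehicle rat. The rise was 1.72-fold (0.79 ± 0.24, adjusted p = 0.0087), and was not called without rat2 (0.0708). At 24 h, 48 h and 8 d the differences were 0.16, 0.46 and 0.40 (adjusted p = 0.578, 0.164 and 0.914). In the combination Prf1 was 5.60, 6.62 and 5.84 at 3 h, and only rat62 exceeded all vehicle rats. The 3 h rise, 1.55-fold (0.63 ± 0.24, adjusted p = 0.0375), was lost without rat62 (0.351), rat2 (0.184) or rat1 (0.0657), with only the 2 groups fitted (0.144) and with the GAPDH covariate (0.0516). It was 5.89, 5.45 and 6.05 at 24 h, 5.44, 4.90 and 5.69 at 48 h, and 5.66, 4.92 and 4.97 at 8 d, with no call (differences 0.23, 0.04 and -0.44). No neighbouring groups in the order of Prf1 means were free of overlap.

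Gzmb, the granzyme that activates caspases, exceeded the control level as a group mean only in the combination at 3 h. The rat genome holds several granzyme B-like genes, and whether they share signal with these probe sets was not tested. In that group Gzmb was 4.99, 5.44 and 4.94, against 4.01, 4.07 and 4.12 in vehicle rats, and the 2 groups did not overlap. The rise was at least 1.68-fold (log2 1.05 ± 0.20, adjusted p = 7.36e-05). A second, dimmer probe set for Gzmb moved the same way (0.94 ± 0.11, adjusted p = 7.14e-08 over 20826 probe sets), with its group means under the control level. At 24 h, 48 h and 8 d of the combination the differences were 0.15, 0.16 and -0.32, none called. With galactosamine at 3 h it was 4.05, 4.03 and 5.00, so rat18 alone was high, and the difference was 0.29 ± 0.20 (adjusted p = 0.279). With nevirapine at 3 h it was 3.34, 3.91 and 3.05, below the vehicle rats (-0.64 ± 0.20, adjusted p = 0.0247), both groups lying under the control level. That call was lost without any 1 of 5 of the 6 rats (adjusted p = 0.0514 to 0.173) and in 4 settings, and the second probe set gave -0.05 (adjusted p = 0.825).

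Nkg7, the granule membrane protein, was called higher at 3 h and 48 h of galactosamine and at 3 h and 24 h of the combination. At 3 h it was 4.90, 4.38 and 5.02 with galactosamine and 4.69, 5.21 and 4.82 with the combination, all above the 4.23, 4.26 and 4.21 of vehicle. It rose at least 1.31-fold with galactosamine (0.53 ± 0.16, adjusted p = 0.00703) and at least 1.45-fold with the combination (0.67 ± 0.16, adjusted p = 0.000958). Only the galactosamine call was lost when a rat was left out, rat18 (0.0714). At 48 h of galactosamine it was 4.93 and 4.48 against 4.02, 4.06 and 4.02 (at least 1.26-fold, 0.67 ± 0.17, adjusted p = 0.00203), and this call was lost without rat26 (0.115). At 24 h of the combination it was 4.71, 4.29 and 4.76 against 4.32, 4.33 and 3.72 (at least 1.16-fold, 0.46 ± 0.16, adjusted p = 0.0163). Here the groups overlapped, and the call was lost without rat6 (0.219), rat79 (0.0956) or rat67 (0.075), with only the 2 groups fitted (0.121) and with array weights (0.0646). In nevirapine rats Nkg7 ran from 3.63 to 4.20, with differences of -0.29, -0.22, -0.28 and -0.37 at 3 h, 24 h, 48 h and 15 d, none called.

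Klrd1, the CD94 receptor chain, was highest with galactosamine alone. It was 5.14, 4.73 and 4.73 at 3 h of galactosamine against 3.64, 3.55 and 3.63 in vehicle rats, a gap of more than 1 log2 unit between the groups. The rise was at least 1.41-fold (log2 1.26 ± 0.19, adjusted p = 1.49e-06) and held in every setting and without each rat. At 24 h Klrd1 was 3.77, 3.87 and 3.99 (difference 0.13, adjusted p = 0.573). At 48 h it was 4.64 and 4.45 against 3.82, 3.89 and 3.70 (at least 1.13-fold, 0.74 ± 0.21, adjusted p = 0.00503), and this call was lost without rat26 (0.0698). At 8 d it was 4.91, 4.87 and 4.89, the highest group mean of all 17, but vehicle rats of 8 d were also high, at 4.48, 4.46 and 4.52 (difference 0.40 ± 0.19, adjusted p = 0.816). In the combination it was 3.88, 5.06 and 4.65 at 3 h (at least 1.12-fold, 0.92 ± 0.19, adjusted p = 0.000239, or 0.0513 with only the 2 groups fitted), so rat61 lay near the vehicle rats. From 24 h on, the combination gave 0.07, 0.01 and 0.20, none called. With nevirapine at 3 h it was 4.03, 4.64 and 4.01, higher than vehicle (0.62 ± 0.19, adjusted p = 0.023), but both groups lay under the control level. This last call was lost without rat32 (0.198), rat2 (0.0754) or rat1 (0.0535), with only the 2 groups fitted (0.0581) and with all vehicle rats as 1 control (0.418).

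Klrd1 was also the only 1 of the 7 that differed among the 5 vehicle groups (moderated F over the 5 groups, adjusted p = 0.00189), where 29.6% of all genes did. Its vehicle means were 3.61 at 3 h, 3.75 at 24 h, 3.80 at 48 h, 4.49 at 8 d and 4.20 at 15 d. The GAPDH 3′ minus 5′ difference, a measure of RNA degradation, averaged 0.40, 0.47, 0.613, 0.0399 and 0.0866 in the same groups, lowest in the groups where Klrd1 was highest. Its part in the Klrd1 levels was not tested. At 48 h the same measure was 0.138 in galactosamine and 0.613 in vehicle rats, without overlap. The groups also did not overlap at 48 h of the combination (0.318 against 0.613) and at 15 d of nevirapine (0.202 against 0.0866). Between the combination and galactosamine there was no overlap at 24 h (0.235 against 0.457) and at 48 h (0.318 against 0.138). With this measure as a covariate, Klrd1 and Nkg7 were still called at 48 h of galactosamine, and Gzma and Prf1 at 15 d of nevirapine. Gzma at 48 h of the combination was no longer called. Against galactosamine, the combination's calls of Gzma and Cd3e at 24 h and of Klrd1 at 48 h stayed with this covariate.

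Cd3e, the signalling chain of the T cell receptor complex, was called higher at 3 h and 24 h of the combination and in no group given 1 drug. It was 5.06, 5.01 and 5.41 at 3 h, 4.99, 4.62 and 5.11 at 24 h, 4.38, 4.32 and 5.45 at 48 h, and 4.72, 4.49 and 4.86 at 8 d. Vehicle rats ran from 4.10 to 4.54 (mean 4.29 ± 0.12 SD, n = 15), so all combination rats of 3 h and 24 h lay above them, and at 48 h rat72 alone did. Cd3e rose at least 1.73-fold at 3 h (log2 0.88 ± 0.19, adjusted p = 0.000325) and at least 1.45-fold at 24 h (0.62 ± 0.19, adjusted p = 0.00742), the latter not called without rat79 (0.0543). At 48 h and 8 d the differences were 0.46 and 0.47 (adjusted p = 0.0884 and 0.0607), and the 8 d value passed in 5 other settings, but was 0.11 as the mean of the probe sets (adjusted p = 0.509). A dimmer second probe set gave 0.41 ± 0.11 at 3 h (adjusted p = 0.00474 over 20826 probe sets), 0.09 ± 0.11 at 24 h (adjusted p = 0.589) and -0.24 ± 0.11 at 8 d (adjusted p = 0.11), so it was not called at 24 h, with all its group means under the control level. With either drug alone the differences lay between -0.07 and 0.22, none called.

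Cd8a, the coreceptor chain, was 4.61, 5.10 and 5.56 at 3 h of the combination, against 3.56, 3.70 and 3.83 in vehicle rats. It rose at least 1.65-fold (log2 1.39 ± 0.24, adjusted p = 1.76e-05). At 24 h it was 4.22, 3.57 and 4.15, and at 48 h 3.84, 3.52 and 4.66 (differences 0.30 and 0.43, none called). At 8 d it was 4.82, 3.93 and 4.83 against 3.37, 3.83 and 3.57, at least 1.11-fold higher (0.94 ± 0.24, adjusted p = 0.00307), with rat84 close to the vehicle rats. The 3 h and 8 d calls held in every setting and without each rat. The other 2 probe sets of Cd8a gave 0.83 ± 0.19 (adjusted p = 0.00104) and 0.09 ± 0.11 (adjusted p = 0.577) at 3 h, and 0.29 ± 0.19 (adjusted p = 0.29) and -0.10 ± 0.11 (adjusted p = 0.557) at 8 d, so 1 of 3 probe sets was called at 8 d. As the mean of the 3, Cd8a rose by 0.37 at 8 d (adjusted p = 0.0493). Cd8b, the partner chain of the CD8 heterodimer, was under the control level in all these groups, with differences of -0.01 at 3 h (adjusted p = 0.985) and 0.00 at 8 d (adjusted p = 0.999). With either drug alone the differences of the kept Cd8a probe set lay between -0.42 and 0.34, none called. The second probe set was called higher at 48 h of galactosamine (0.56 ± 0.22, adjusted p = 0.0376), with its group means under the control level.

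**Figure D2:**
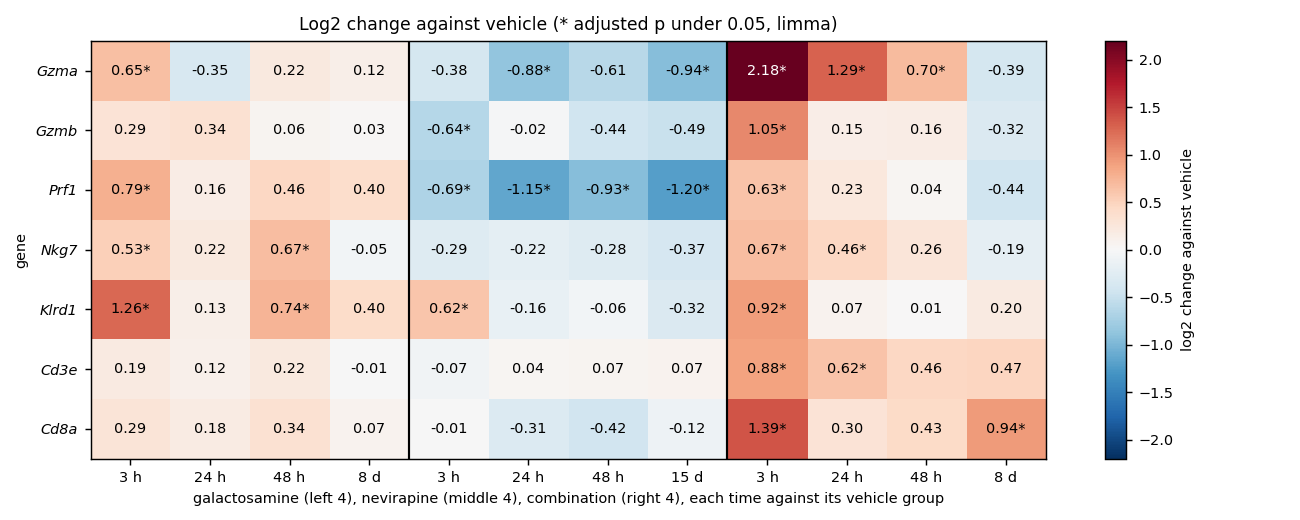
Log2 change of the 7 genes (rows) against the vehicle group of the same time (columns: galactosamine, nevirapine and the combination, in time order), with the value in each cell and the colour from blue (lower) to red (higher). A star marks an adjusted p under 0.05 from limma. The 3 h column of the combination is starred for all 7 genes, and Prf1 is starred in all 4 nevirapine columns.

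Read by treatment, galactosamine alone raised 4 of the 7 genes at 3 h (Gzma, Prf1, Nkg7 and Klrd1; 2 to 4 when a rat was left out), where 14.9% of all genes were called higher and 18% lower. None was called by limma at 24 h, nor had any an unadjusted p under 0.05, where 30.2% of all genes were higher and 28.5% lower. At 48 h 2 were higher (Nkg7 and Klrd1; none without rat26), against 24.9% higher and 14.5% lower. At 8 d none was called by limma, against 0.00703% of all genes called higher and 0.0281% lower. Of the 7, 1 (Klrd1) had an unadjusted p under 0.05 there, a threshold at which all genes were not counted. The median change of the 7 was 0.53 at 3 h and 0.16 at 24 h, beside -0.00027 and -0.07 for all genes. Markers of other blood cells moved at the same times. Pan-leukocyte markers were higher for 8 of 10 genes at 3 h, 24 h and 48 h, with summed linear signals of 1479.9 to 1511 at 3 h, 1448 to 1733 at 24 h and 2012 to 2054 at 48 h against 633 to 933, 744 to 774 and 607 to 1041 in vehicle rats. Macrophage markers were higher for 9 of 10 at 3 h, 2 of 10 at 24 h and 9 of 10 at 48 h. B cell markers gave 1 of 4 higher at 3 h (Blk). At 48 h, where Nkg7 and Klrd1 were called, mast cell and basophil markers were higher for 3 of 6 (summed signal 425 to 911 against 133 to 209 in vehicle rats), dividing cell genes for 5 of 6 (187 to 200.5 against 67.1 to 76.0) and neutrophil markers for 2 of 6. The part of these cells in the changes of the 7 genes was not tested.

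Nevirapine alone gave lower values of Gzmb and Prf1 and a higher value of Klrd1 at 3 h, lower Gzma and Prf1 at 24 h, lower Prf1 at 48 h, and lower Gzma and Prf1 at 15 d. Of all genes, 7.59% were higher and 7.48% lower at 3 h, 4.55% and 6.63% at 24 h, 11% and 6.44% at 48 h, and 5.13% and 8.79% at 15 d. The median change of the 7 was -0.29, -0.22, -0.42 and -0.37 at these times, beside -0.04, -0.01, -0.0047 and -0.04 for all genes. The 3 h count depended on single rats (0 to 2 called without 1 of them). Pan-leukocyte markers were lower for 5 of 10 genes at 24 h, 4 at 48 h and 6 at 15 d (summed signal 507 to 534 at 24 h against 744 to 774 in vehicle rats, and 764 to 836 at 15 d against 1068 to 1169). Macrophage markers were lower for 5 of 10 at 24 h and 3 of 10 at 15 d, and 6 of 10 were higher at 3 h. B cell markers were lower for 1, 2 and 2 of 4 at 24 h, 48 h and 15 d. Their part in the lower signals of Prf1 and Gzma was not tested. The nevirapine rats of 3 h were taken 1 h after the sham injection and 3 h after the oral dose. Their vehicle rats were taken 3 h and 5 h after these, so neither interval can be told apart from the drug there.

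The combination raised all 7 genes at 3 h (5 with only the 2 groups fitted, without Prf1 and Klrd1), against 15.2% higher and 17.4% lower among all genes, with a median of 0.92 beside -0.06 for all genes. At 24 h 3 were higher (Gzma, Nkg7 and Cd3e; 1 to 3 without 1 rat), against 20.7% and 16%. At 48 h only Gzma was called, against 10.2% and 5.77%, and at 8 d only Cd8a, against 13.1% and 11.7%. Within groups, some rats stood highest for several of the genes, but not for all. At 3 h rat62 was the highest of its group for Gzma, Gzmb, Prf1, Nkg7 and Klrd1, but the lowest for Cd3e. There rat63 was the highest for Cd3e and Cd8a. At 48 h rat72 was the highest for 6 of the 7 genes and the lowest for Klrd1. At 3 h pan-leukocyte markers were higher for 8 of 10 genes (summed signal 1998 to 2480.4 against 633 to 933) and macrophage markers for 10 of 10 (8018 to 8876 against 2692 to 4134). Neutrophil markers were higher for 2 of 6 and B cell markers for 1 of 4. At 24 h, 48 h and 8 d pan-leukocyte markers were higher for 6, 7 and 4 of 10, and macrophage markers for 9, 9 and 3 of 10. Dividing cell genes were higher for 4 of 6 at 3 h and 6 of 6 at 8 d. Mast cell and basophil markers were higher for 3 of 6 at 8 d (Cpa3, Mcpt1 and Fcer1a). The part of these cells in the changes was not tested.

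**Figure D3:**
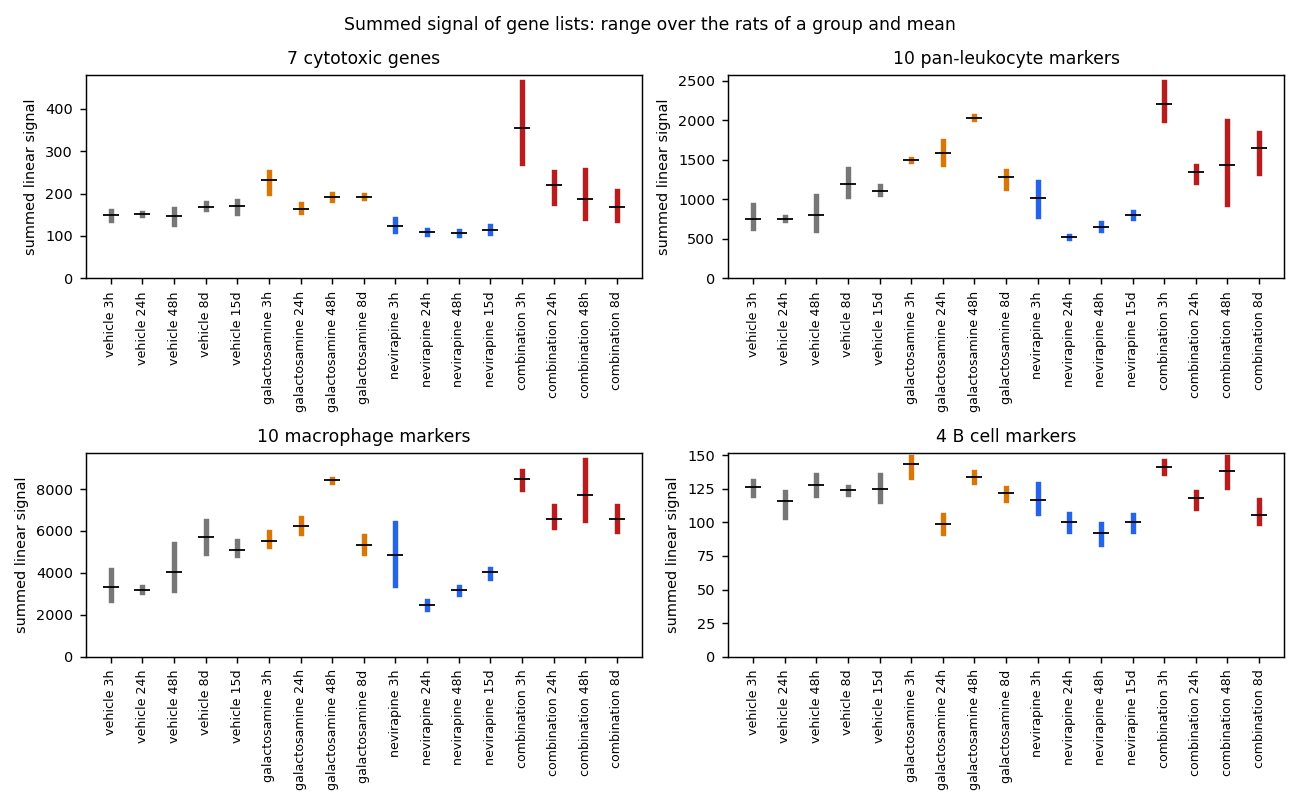
Summed linear signal of the 7 cytotoxic genes and of pan-leukocyte, macrophage and B cell markers (panels), by group along the horizontal axis. Bars run from the lowest to the highest rat of a group and the dash is the group mean. The 7 genes sum highest in the combination at 3 h, as pan-leukocyte markers do (1998 to 2480.4), while B cell markers stay between 84.2 and 149 in all groups. Brighter genes weigh more in such a sum, and in some groups 2 of the 4 B cell markers lie under the control level.

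Set against galactosamine at the same time, the combination was higher for Gzma, Gzmb, Cd3e and Cd8a at 3 h, against 10.6% higher and 7.06% lower among all genes. Both treatments share the vehicle group, which cancels in this difference. Gzma was 2.89-fold higher (log2 1.53 ± 0.24, adjusted p = 1.45e-05), Cd8a at least 1.65-fold (1.10 ± 0.24, adjusted p = 0.000905), Gzmb at least 1.68-fold (0.76 ± 0.20, adjusted p = 0.00553) and Cd3e 1.62-fold (0.70 ± 0.19, adjusted p = 0.00734). In Gzmb the groups overlapped through rat18, and the call was lost without rat16 (0.0532) or rat17 (0.0594) and with only the 2 groups fitted (0.15). The Cd3e call was lost without rat63 (0.0667), and without rat63, rat70 and rat31 together (0.0559). Prf1, Nkg7 and Klrd1 did not pass, with differences of -0.15 (95% interval -0.63 to 0.32), 0.14 (-0.17 to 0.46) and -0.34 (-0.72 to 0.05).

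At 24 h Gzma was at least 2.9-fold higher with the combination than with galactosamine (1.64 ± 0.24, adjusted p = 6.51e-07), and Cd3e 1.42-fold (0.50 ± 0.19, adjusted p = 0.0305), against 16.2% higher and 21.6% lower among all genes. The Cd3e call was lost without rat79 (0.136), rat67 (0.0921), rat24 (0.0901) or rat22 (0.0653), with only the 2 groups fitted (0.0593) and after cyclic loess (0.0732), and the second Cd3e probe set gave 0.18 (adjusted p = 0.212). At 48 h Klrd1 was at least 1.13-fold lower (-0.73 ± 0.21, adjusted p = 0.00768), against 12.1% higher and 17.1% lower. With only 2 galactosamine rats, this call was lost without rat26 (0.0939), and also with only the 2 groups fitted (0.0511). Of the macrophage markers, 6 of 10 were higher than with galactosamine at 3 h and 9 of 10 at 24 h, and of the pan-leukocyte markers 5 and 1 of 10. Their part was not tested.

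**Figure D4:**
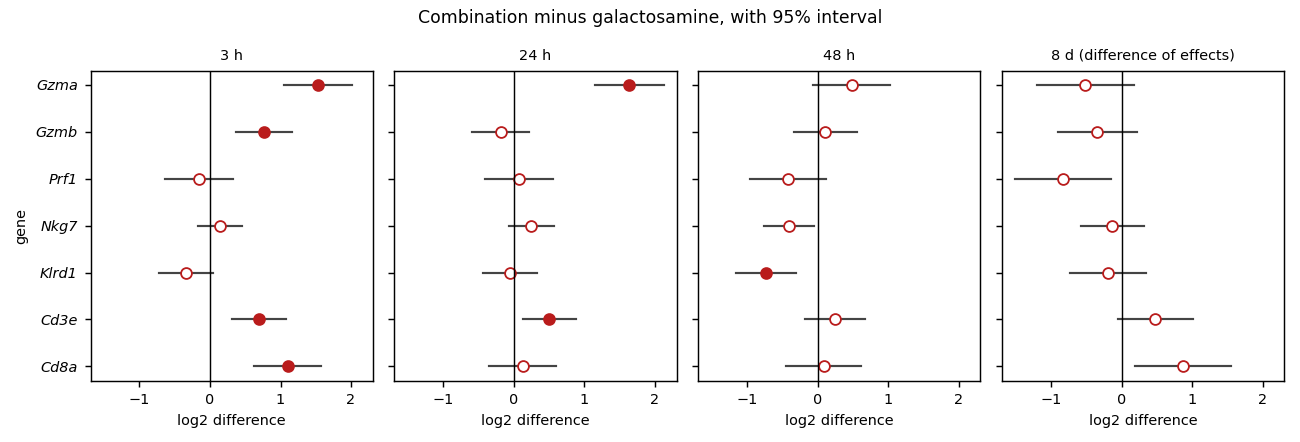
Log2 difference of the combination from galactosamine for the 7 genes at 3 h, 24 h and 48 h, and at 8 d with each treatment first set against its own vehicle group. Points are fitted differences, lines their 95% intervals from limma, and filled points have an adjusted p under 0.05. Gzma is filled at 3 h and 24 h (1.53 and 1.64), as is Cd3e (0.70 and 0.50), and Cd8a and Gzmb at 3 h. Klrd1 is filled at 48 h, on the lower side (-0.73), and no gene at 8 d.

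At 8 d, the end of the period in which fibrosis is described with both drugs, the effect of the combination on its vehicle group differed from that of galactosamine for none of the 7 by limma, and 2 of them, Prf1 and Cd8a, had an unadjusted p under 0.05. At the adjusted threshold all genes gave 5.87% higher and 5.34% lower in that contrast, and they were not counted at the unadjusted one. The difference of effects was 0.87 (interval 0.18 to 1.55, adjusted p = 0.0833) for Cd8a and -0.83 (-1.51 to -0.15, adjusted p = 0.1) for Prf1. Against nevirapine given for the same 15 d, the combination at 8 d had more Cd8a (at least 1.11-fold, 1.06 ± 0.24, adjusted p = 0.00179) and more Prf1 (1.7-fold, 0.77 ± 0.24, adjusted p = 0.0257), against 9.31% higher and 3.09% lower among all genes. The Prf1 call was lost without rat73 (0.193), rat45 (0.104) or rat44 (0.0647). Pan-leukocyte markers were higher for 8 of 10 genes and macrophage markers for 7 of 10 in the same comparison, and their part was not tested. The departure from additivity of the 2 drugs at 8 d was called for none of the 7 by limma. Among all genes, 2.05% were called higher and 0.774% lower. Of the 7, 1 (Cd8a) had an unadjusted p under 0.05 (0.99, adjusted p = 0.0919), a threshold at which all genes were not counted.

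The partners of these genes were described from lists chosen with earlier results of these data known. Of 19 other T cell receptor and signalling genes, 4 were higher and 1 lower at 3 h of the combination, where 15.2% of all genes were higher and 17.4% lower, led by the T cell receptor chains Cd3d (at least 1.12-fold, 1.18 ± 0.18, adjusted p = 2.61e-06) and Cd3g (0.74 ± 0.16, adjusted p = 0.000444, both groups under the control level) and the kinase Lck (1.33-fold, adjusted p = 0.00703). Cd3d and Cd3g were called higher at 24 h and 48 h too, and neither passed at 8 d (-0.12 and 0.08). Cd3g was also higher at 48 h of galactosamine. At 3 h of galactosamine only Tcf7 of the 19 was higher, where 14.9% of all genes were higher, and with nevirapine at 15 d 4 were lower and none higher, where 8.79% of all genes were lower. Cd4, the coreceptor of helper T cells, gave 0.08 at 3 h of the combination (adjusted p = 0.723). Icos, a costimulatory receptor of activated T cells, was higher at all 4 times of the combination, 1.56-fold at 3 h (adjusted p = 2.11e-05), and lower with nevirapine at 15 d (1.28-fold, adjusted p = 0.0234).

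Of 13 NK cell receptor and adaptor genes, 5 were higher at 3 h of galactosamine and 4 at 3 h of the combination, none lower. Of all genes, 14.9% were higher and 18% lower in the first of these comparisons, and 15.2% and 17.4% in the second, which also holds for the granule genes below. At 3 h of galactosamine they were led by the inhibitory receptor Klrg1 (1.97-fold, adjusted p = 0.0148) and the adaptors Hcst (1.8-fold, adjusted p = 0.000209) and Tyrobp (1.79-fold, adjusted p = 0.00361). At 3 h of the combination the Fc receptor Fcgr3a (6.07-fold, adjusted p = 2.31e-08), Tyrobp (3.69-fold, adjusted p = 5.74e-08) and Hcst (2.12-fold, adjusted p = 1.02e-05) led, of which Fcgr3a and Tyrobp are also expressed by macrophages. Tyrobp, Hcst and the IL-2 and IL-15 receptor chain Il2rb were lower at 15 d of nevirapine (1.82-fold, 1.47-fold and at least 1.31-fold). Of 14 other granule and death ligand genes, 6 were higher at 3 h of galactosamine, among them the granule proteoglycan Srgn (2.75-fold, adjusted p = 1.12e-07), the death ligand Tnfsf10 (2.47-fold, adjusted p = 1.07e-06) and Cst7 (at least 1.13-fold, adjusted p = 0.00229). At 3 h of the combination 5 were higher, with Srgn (2.35-fold), Tnfsf10 (2.21-fold) and Rab27a among them. Gzmm, another granzyme of NK cells, was lower in the combination than with galactosamine at 3 h (1.40-fold, adjusted p = 0.00885), where Gzma and Gzmb were higher.

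Of 9 cytokine and chemokine genes of lymphocytes, 5 were higher and none lower at 3 h of galactosamine (14.9% and 18% of all genes), and 3 were higher and 2 lower at 3 h of the combination (15.2% and 17.4%). Xcl1, a chemokine made by activated NK and CD8+ T cells, was at least 11.8-fold higher with galactosamine and at least 1.18-fold higher with the combination (adjusted p = 6.46e-19 and 0.0342), so it was 9.98-fold lower in the combination than with galactosamine (adjusted p = 7.24e-17). Ccl3 and Ccl4 were higher in both (5.15-fold and 4.96-fold with galactosamine, 3.62-fold and 3.11-fold with the combination). Ccl5 was 2.26-fold lower at 15 d of nevirapine (adjusted p = 0.000388). Ifng stayed under the control level in all 17 groups (means 2.21 to 2.80). Cxcl9, which draws CXCR3-bearing T and NK cells, was 13.8-fold higher at 3 h of the combination (adjusted p = 2.02e-10) and 2.14-fold higher with galactosamine (adjusted p = 0.0105), a 6.46-fold difference between them (adjusted p = 3.45e-07). Cxcl9 stayed higher than with galactosamine at 24 h and 48 h (2.73-fold and 2.63-fold). The other ligands of CXCR3, Cxcl10 and Cxcl11, went with Cxcl9 in some comparisons and not in others. Cxcl10 was higher in both groups at 3 h (6.35-fold with galactosamine, 7.33-fold with the combination), and the difference between them did not pass at 3 h (0.21, adjusted p = 0.83) or at 24 h (-1.05, adjusted p = 0.111). Cxcl11 was 3.59-fold lower than vehicle at 3 h of galactosamine and not called at 3 h of the combination (-0.16, adjusted p = 0.641), so it was 3.21-fold higher in the combination than with galactosamine at 3 h, but 2.51-fold lower at 24 h (adjusted p = 2.86e-06 and 2.01e-05). Il15, a survival factor for NK and CD8+ T cells, was lower at 3 h, 24 h and 48 h of galactosamine and of the combination and at 3 h, 24 h and 15 d of nevirapine (1.87-fold at 24 h of the combination, 1.52-fold at 15 d of nevirapine). Of 8 lineage transcription factor genes, 2 were higher at 3 h of the combination, Irf1 (2.46-fold, adjusted p = 0.000107) and Ets1, beside 15.2% of all genes. Of 7 homing receptor genes, Itgb2 was higher and Itgal lower there.

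Patterns over the 17 group means were compared with those of 11416 other genes that exceeded the control level in some group. The means share 1 array platform and the leukocyte changes above, and no test is attached. Prf1 was most like Irf8, a transcription factor of myeloid and dendritic cells (Pearson r = 0.93), then Il2rb (0.87) and Adgre5 (0.86), and Irf8 also came first over the 50 single arrays (0.89). Gzma was most like Spic, Il1b and Pira2 (0.84, 0.84 and 0.83), and Nkg7 like Spic, Cd83 and Arhgap25 (0.87, 0.86 and 0.86), of which Spic encodes a factor of iron-recycling macrophages. Gzmb was most like Chi3l1, Pou2f2 and Lpcat1 (0.86, 0.85 and 0.84). Klrd1 stood with Gimap5, a lymphocyte survival gene, Pde7a and Ctse (0.92, 0.90 and 0.90). Cd3e was most like Tnfrsf14, Cxcl9 and Ms4a7 (0.91, 0.89 and 0.89), and Cd8a like Tlr2, Clec10a and Clec7a (0.92, 0.91 and 0.90), which are myeloid receptors. The order of likeness depended on the measure. By Spearman correlation over the group means the 3 genes named for Cd3e ranked 174.5, 534.5 and 723.5, and by Pearson correlation over the 50 arrays Spic ranked 43 for Nkg7. Among the 7 themselves, the closest pairs were Cd3e with Cd8a (0.84) and Prf1 with Nkg7 (0.84), and the least close was Gzmb with Klrd1 (0.24). Within groups, taking each rat's deviation from its group mean, Gzma went most closely with Prf1 (0.63, 50 arrays) and Cd3e with Cd8a (0.53).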

How the data were processed

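The deposited values are log2 probe set signals on 31099 probe sets, normalized by the authors; RMA and limma are named in the submitters' processing notes, with no version or role. Probe sets were named from the array's annotation table, in which 20826 carry 1 gene symbol and 436 several. For each of 14217 genes the probe set with the highest mean over 50 arrays was kept. Group means were fitted with limma 3.58.1 (R 4.3.3) on all 50 arrays, with Benjamini-Hochberg adjustment within each of 18 comparisons and a moderated F over the 5 vehicle groups, all two-sided. Folds from 2 group means use the control level of 4.37 where 1 mean lies under it. The fit was tested on simulated data. Lists, markers and the 7 genes were chosen with earlier results of these data known. Genes named beyond the 7 are, per list, up to 3 with the largest called change in a comparison, and other partners by name, some chosen after their values were seen; for likeness, the 3 with the highest Pearson correlation over group means. Promoters and figures used Python 3.11.15 with pandas 2.3.3 and matplotlib 3.10.9. Alternatives changed the samples fitted, the prior, the probe set rule, the normalization, array weights, the control group, a GAPDH covariate and the rats included. Rats are separate animals per the labels.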

Additional observations from a re-analysis of the deposited data

Results flagged for a closer look

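Differences between the 2 effects on the same vehicle group were tested directly for the 7 genes at 3 h, 24 h and 48 h. Of these differences, 7 passed. Of all genes, 10.6% were higher and 7.06% lower at 3 h, 16.2% and 21.6% at 24 h, and 12.1% and 17.1% at 48 h. At 3 h the effect of the combination exceeded that of galactosamine by 1.53 for Gzma, 0.76 for Gzmb, 0.70 for Cd3e and 1.10 for Cd8a on the log2 scale. At 24 h it did so by 1.64 for Gzma and 0.50 for Cd3e. At 48 h the difference for Klrd1 was -0.73, resting on 2 galactosamine rats. The Gzma and Cd8a calls held in every setting and without each rat. Each Gzmb, Cd3e and Klrd1 call was lost in some settings and without some rats. Nevirapine before the injection and the drugs acting together cannot be told apart in these differences.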

How the results depend on the processing

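The 35 called differences of the 7 genes gave 272 refitted values over the other settings and 207 with 1 rat left out. None of these values changed sign, while 23 and 44 of them were no longer past the threshold. In all settings and without each rat, 16 differences kept their call. Of 1327 refitted values of uncalled differences, 52 passed the threshold. No paired analysis was possible because each rat carries its own number. Leaving out the dimmest 40% of genes removes all 7, so that setting gave no value. Without 1 rat, the number of the 7 called, against vehicle, was 2 to 4, 0 to 1, 0 to 2 and 0 to 0 for galactosamine (3 h, 24 h, 48 h, 8 d), 0 to 2, 1 to 2, 1 to 1 and 2 to 2 for nevirapine (3 h, 24 h, 48 h, 15 d), and 6 to 7, 1 to 3, 0 to 2 and 1 to 2 for the combination (3 h, 24 h, 48 h, 8 d). Against galactosamine it was 3 to 5, 1 to 2 and 0 to 2 (3 h, 24 h, 48 h), 0 to 1 for the difference of effects at 8 d, 1 to 3 against nevirapine at 15 d, 0 to 1 for additivity and 1 to 1 among vehicle groups. With only the compared groups fitted, the count was 1 for nevirapine at 3 h, 4 at 48 h and 4 at 15 d, 5, 0 and 3 for the combination at 3 h, 48 h and 8 d, 1 and 0 against galactosamine at 24 h and 48 h, 3 for the effects at 8 d, 1 for additivity and 2 among vehicle groups. Cyclic loess gave 2 for galactosamine at 24 h, 1 for nevirapine at 3 h, 2 for the combination at 8 d, 1 and 2 against galactosamine at 24 h and 48 h, and 2 among vehicle groups. Array weights gave 1 for galactosamine at 24 h, 3 and 4 for nevirapine at 48 h and 15 d, 0 and 2 for the combination at 48 h and 8 d, 2 against galactosamine at 48 h, 2 for the effects at 8 d, 4 against nevirapine at 15 d, 1 for additivity and 2 among vehicle groups. All 15 vehicle rats as 1 control gave 1 for galactosamine at 24 h and at 8 d, 3 for nevirapine at 48 h, and 2 for the combination at 48 h and at 8 d. The mean of all probe sets gave 2 for nevirapine at 48 h, the GAPDH covariate 0 for the combination at 48 h, and the treated groups compared directly 2 at 8 d. Without rat63, rat70 and rat31 it was 1 for nevirapine at 3 h and 2 for the combination at 48 h and at 8 d. The cause of these changed counts was not tested. No share of all genes called is given for these refits, so a changed count has no reading for the 7 genes in particular. Low signal over background limits all 7 genes, most of all Gzmb and Cd8a, and the size of a fitted difference has no reading where both groups lie under the control level. In all genes, cyclic loess moved the share of higher calls from 60.1% to 71.2% in the combination against galactosamine at 3 h.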
